A study of Mus musculus with 3 samples.

Results

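The 10 genes described here carry glucose into the cell (*Slc2a1*), phosphorylate and split it (*Hk2*, *Pfkp*, *Aldoa*, *Tpi1*), harvest energy from the resulting trioses (*Pgk1*, *Eno1*, *Pkm*) and turn pyruvate into lactate and export it (*Ldha*, *Slc16a3*). They were taken as a named list, chosen with earlier results of these data known. All 10 were found among the 27,985 genes of the count table after equal names had been summed. All 10 also passed the minimum level of 0.1 unique molecular identifiers (UMIs, each standing for 1 captured mRNA molecule) per 10,000 UMIs over all cells, as did 8317 genes in all.

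The cells were sorted endothelium of the adult mouse heart, from female animals. They were taken fresh (0 h) or after 24, 48, 72 and 96 h of aggregate culture with Mesp1(der) PSCs, PDGFRA-positive stromal cells from the aorta-gonad-mesonephros region of E11.5 embryos. The culture medium held 20% fetal calf serum and 100 ng/ml each of SCF, Flt3L and an interleukin. Cultured cells were sorted by a gate that included CD31+VE-Cad+PDGFRA-, set by surface protein. The 3 samples are pools of all these times, and the 9562 cells carry 1 of 3 library suffixes (3507, 3958 and 2097 cells, with medians of 23651, 13440.5 and 38312 UMIs) that nothing in the files used here ties to a pool or a time. The whole table was therefore handled as 1 sample. The clusters were made from these same counts, a test over the 3 libraries was not made, and P values are not given. Levels are UMIs of a gene per 10,000 UMIs of a group of cells. Intervals in brackets are at 95% and cover counting error only, and the values of the 3 libraries show a spread that may be technical.

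Glycolysis breaks glucose down to pyruvate in the cytosol. Endothelial cells are known to draw much of their energy from it even when oxygen is plentiful, and proliferating and inflammatory leukocytes lean on it as well. The transcription factor HIF1A raises many of its genes when oxygen is low, and MYC raises several of them in growing cells. Most steps can be run by several isoenzymes from separate genes, so a cell type can change which gene serves a step.

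The comparison runs over the 7 clusters that the authors assigned from the same counts, numbered 0 to 6. Clusters 0, 1 and 2 carried the endothelial markers *Cdh5*, *Pecam1*, *Kdr*, *Egfl7* and *Tie1*, at summed levels of 35.0, 36.9 and 23.0, against 2.91 to 5.06 in the other 4. Macrophage (12.4) and neutrophil (10.8) markers were highest in cluster 5, megakaryocyte markers (187) in cluster 6 and stromal markers (17.3) in cluster 4, and cluster 3 had the highest level of *Dppa5a*, *Utf1* and *Rhox6*, genes of germ and pluripotent cells (34.7). Cluster 2 held 5396 cells and clusters 0, 1, 3, 4, 5 and 6 held 728, 799, 239, 518, 1572 and 310. Median depth ran from 7875 UMIs per cell in cluster 1 to 36065.5 in cluster 5. As a yardstick for free RNA, the platelet gene *Pf4* stood in clusters 0 to 5 at 0.0946% to 1.08% of its level in cluster 6. The upper value is that of cluster 1, and cluster 5 came next at 0.696%. In cluster 1 *Pf4* was at 8.24 in 54 cells picked by macrophage and neutrophil markers and at 0.862 in the remaining 745. Because fewer cells of a type and less RNA per cell cannot be told apart within a summed group, a level here describes the group and not each cell in it.

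Promoter sequence is shown for 3 genes because HIF and MYC family factors are described to bind short letters that can be searched for. Both strands were searched for ACGTG and GCGTG, the cores of the HIF-binding element, and for CACGTG, the E-box, which contains ACGTG on each strand. In RefSeq windows from 250 bases before to 50 after a start site (GRCm38.p6), either HIF core occurred in 43.8% of all 32851 windows. It occurred in 13 of 16 windows of the 10 genes, and in at least 1 window of 9 of them. ACGTG alone was in 19.6% of all windows and in 8 of the 16, from 7 of the 10 genes. GCGTG was in 32.4% of all windows and in 7 of the 16, from 4 genes. CACGTG was in 7.15% of all windows and in 1 of the 16, from *Ldha*. The stretches below lie directly upstream of an annotated start, overlap no annotated exon and are printed 5′ to 3′ along the gene's strand, with the cores of either strand in capitals (a core on the opposite strand reads CACGT or CACGC). *Ldha* is at chr7:46845554-46845803 (plus strand), *Hk2* at chr6:82774455-82774704 (minus strand) and *Slc2a1* at chr4:119108495-119108710 (plus strand).
Ldha: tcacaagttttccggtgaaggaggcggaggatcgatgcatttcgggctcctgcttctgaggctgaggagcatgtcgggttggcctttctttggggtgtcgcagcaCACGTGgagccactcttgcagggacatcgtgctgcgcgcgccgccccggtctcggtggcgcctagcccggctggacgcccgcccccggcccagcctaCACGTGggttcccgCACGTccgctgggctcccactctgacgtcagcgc
Hk2: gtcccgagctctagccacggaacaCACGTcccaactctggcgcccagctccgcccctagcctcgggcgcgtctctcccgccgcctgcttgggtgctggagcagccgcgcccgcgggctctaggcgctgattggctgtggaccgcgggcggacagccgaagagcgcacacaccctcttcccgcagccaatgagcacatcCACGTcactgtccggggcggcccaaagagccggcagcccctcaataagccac
Slc2a1: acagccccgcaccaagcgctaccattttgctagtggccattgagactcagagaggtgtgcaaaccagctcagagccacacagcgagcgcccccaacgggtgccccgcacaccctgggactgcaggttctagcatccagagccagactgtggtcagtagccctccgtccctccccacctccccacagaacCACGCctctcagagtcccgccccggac
The *Ldha* stretch holds 5 core positions, 4 of them inside its 2 E-boxes, the *Hk2* stretch holds 2 and the *Slc2a1* stretch 1. Where a gene had more than 1 window, that with the most cores was printed, so the counts are not compared. The other *Ldha* window held 1 core and no E-box before its start. The *Slc2a1* stretch was cut to 216 bases at an annotated exon, and its full 250 bases held 2 cores. A match is a description of the letters in the window and not a bound site. These 3 genes had different patterns over the clusters, as described next.

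*Slc2a1* (chr4:119108711-119137983, plus strand) encodes GLUT1, the glucose carrier of most endothelium and of the blood-brain barrier. Its level in libraries 1, 2 and 3 was 4.41, 3.404 and 4.53 in cluster 0 and 3.35, 3.09 and 3.201 in cluster 2. In cluster 1, the third cluster with endothelial markers, it was 1.22, 1.45 and 1.59. All 3 libraries of clusters 0 and 2 lay above every library of the other 5 clusters, in which values ran from 0.751 in cluster 3 to 1.67 in cluster 4. The order of the pooled levels was cluster 0 (4.14, 4.03 to 4.26), cluster 2 (3.22, 3.19 to 3.25), then 1, 4, 6, 5 and 3 (0.838, 0.772 to 0.908), a 4.94-fold range. The library ranges of clusters 1 and 4, 6 and 5, and 5 and 3 overlapped. With each cell brought to 5,000 UMIs, 52.6% of cluster 0 and 67.3% of cluster 2 cells held a *Slc2a1* UMI, against 25.6% of cells in cluster 4 and 33.4% in cluster 5. The share and the level thus place clusters 0 and 2 in opposite order, and no order is read from the share.

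**Figure D1:**
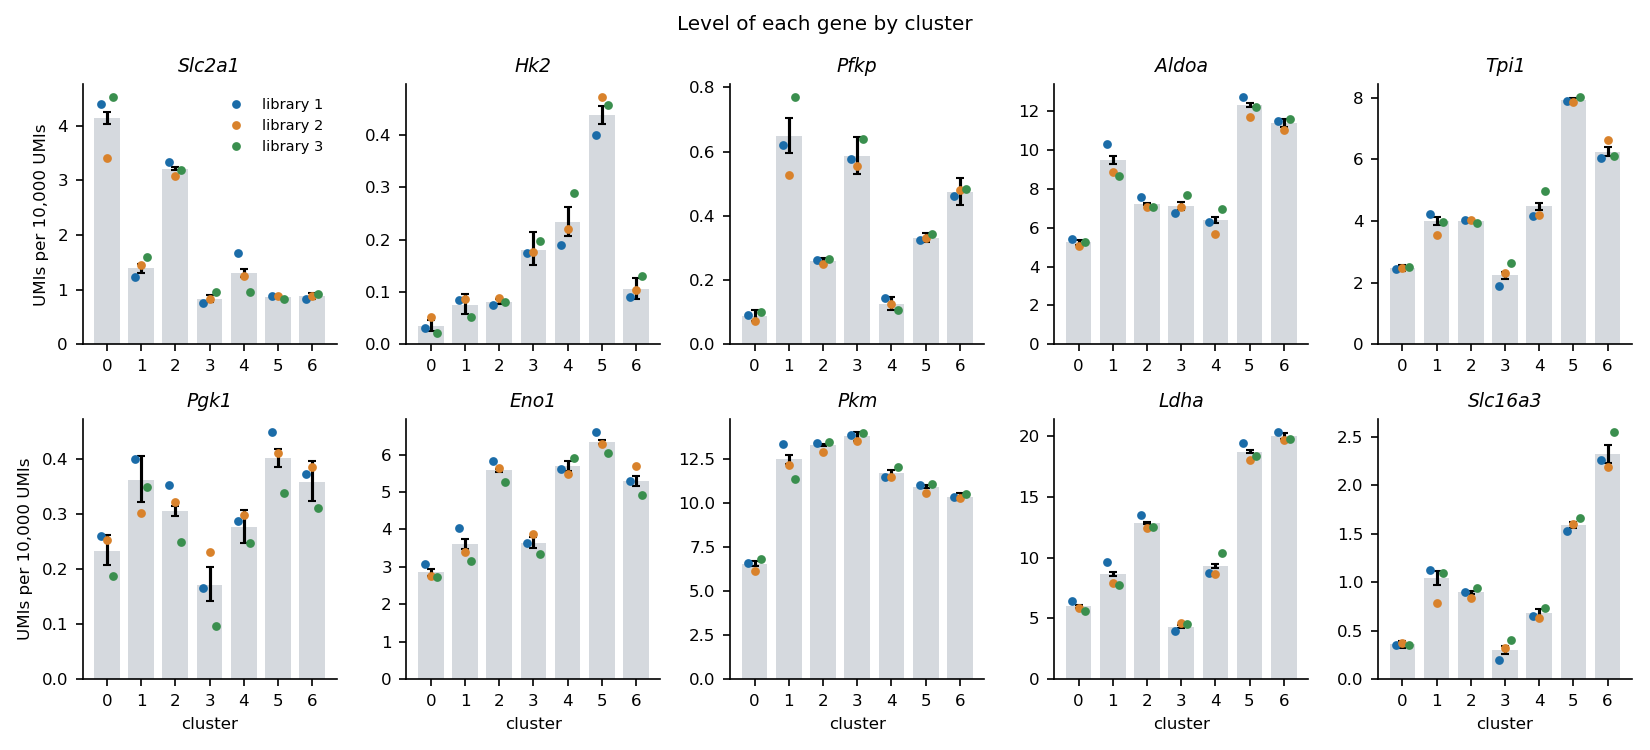
Level of each of the 10 genes (vertical axis, UMIs per 10,000 UMIs, from 0, with a separate scale in each panel) in clusters 0 to 6 (horizontal axis). Bars are all cells of a cluster with 95% counting intervals and points are the 3 libraries. *Slc2a1* stood at 4.14 in cluster 0 and 3.22 in cluster 2 and at 0.867 and 0.876 in clusters 5 and 6, whereas *Ldha* was highest in clusters 5 and 6, at 18.7 and 20.0.

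*Slc2a1* had a pattern apart from the other members, highest in cluster 0 and low in clusters 5 and 6. The contrast did not hold throughout, as *Slc2a1*, *Tpi1*, *Pgk1*, *Ldha* and *Slc16a3* were all lowest in cluster 3. Over the 21 combinations of cluster and library its Pearson correlation with each of the other 9 members, on log2 levels, was below 0, from -0.70 with *Hk2* to -0.13 with *Pgk1*. By contrast *Ldha* and *Slc16a3* correlated at 0.94, *Tpi1* and *Ldha* at 0.94 and *Tpi1* and *Slc16a3* at 0.92. These are descriptions over points that share libraries and depth. Its close relative *Slc2a3* (GLUT3), a carrier of high affinity known from neurons, platelets and leukocytes, was counted beside it. *Slc2a3* supplied 3.71%, 2.502% and 1.56% of the *Slc2a1* and *Slc2a3* UMIs together in clusters 0, 1 and 2. The share was 55.4% in cluster 3, 28.7% and 27.8% in clusters 4 and 5, and 73.7% (72.2% to 75.1%) in cluster 6. In cluster 6 the *Slc2a3* level was 2.46, between 2.35 and 2.61 in the libraries, against 0.0510 in cluster 2. In cluster 5 the *Slc2a3* level was only 0.334, so *Slc2a1* and *Slc2a3* together stood lower there than *Slc2a1* alone did in cluster 2.

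*Hk2* (chr6:82725025-82774454, minus strand) encodes the inducible hexokinase that traps glucose as glucose 6-phosphate. Its levels in libraries 1, 2 and 3 were 0.4003, 0.473 and 0.458 in cluster 5, above every library of the other clusters. The next were cluster 4 (0.189, 0.220 and 0.289) and cluster 3 (0.174, 0.176 and 0.197), whose ranges overlapped. Cluster 6 lay at 0.106 (0.0873 to 0.127), cluster 2 at 0.0813 and cluster 0 at 0.0342 (43 UMIs in all), so that cluster 5 was 12.8-fold above cluster 0. At 5,000 UMIs per cell, 19.4% of cluster 5 cells, 3.83% of cluster 2 cells and 5.50% of cluster 6 cells held a *Hk2* UMI. *Hk2* therefore separated the cluster with macrophage and neutrophil markers from the cluster with megakaryocyte markers.

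In cluster 1 the *Hk2* level came from few cells. Of its 799 cells, 54 held at least 3 UMIs of macrophage and neutrophil markers, a limit set after the values had been seen, and in these *Hk2* stood at 0.366, near cluster 5. In the remaining 745 cells *Hk2* was at 0.0327, near cluster 0. The 54 cells were deeper, with a median of 14568.5 UMIs against 7663. Their macrophage markers *C1qa*, *C1qb*, *Adgre1* and *Csf1r* were at 11.35, 9.04, 1.83 and 1.28, and at most 0.049 in the remaining cells. Of the neutrophil markers, *S100a8* was at 4.62 against 0.0191. *S100a9* (0.0376) and *Mpo* (0.0188) stayed low, and *Elane* had no UMI. The same 54 cells had *Hk3*, a hexokinase of myeloid cells, at 0.883 against 0.00953 in the remaining cells.

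The other hexokinases changed share as well. *Hk1*, the housekeeping form, made up 93.9%, 84.4% and 81.3% of hexokinase UMIs (*Hk1*, *Hk2* and *Hk3*) in clusters 0, 1 and 2 and 92.7% in cluster 6. It made up 48.4% in cluster 4 and 43.9% in cluster 5, where *Hk2* supplied 50.6% and 44.6%. *Hk3* supplied 11.45% in cluster 5 and had no UMI among 1569 hexokinase UMIs in cluster 6, which allows a share of up to 0.235%. The *Hk1* level was highest in cluster 6 (1.35) and cluster 1 (1.06). The families compared for their shares were chosen after values had been seen.

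*Pfkp* (chr13:6579768-6648777, minus strand) encodes the platelet-type phosphofructokinase of the step that commits sugar to glycolysis. It was highest in cluster 1, at 0.622, 0.528 and 0.770 in libraries 1, 2 and 3, and its library range overlapped that of cluster 3 (0.577, 0.555 and 0.640). Cluster 6 followed (0.462, 0.482 and 0.483), then cluster 5 (0.332), cluster 2 (0.259), cluster 4 (0.126) and cluster 0 (0.0882). Clusters 0 and 1, which shared endothelial markers, were at the 2 ends of this order, 7.35-fold apart. Of the phosphofructokinase UMIs, *Pfkp* supplied 41.2% in cluster 3, 30.6% in cluster 1 and 26.5% in cluster 6, and 8.43% to 18.8% elsewhere. *Pfkl*, the liver-type gene, supplied the largest share in all 7 clusters.

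**Figure D2:**
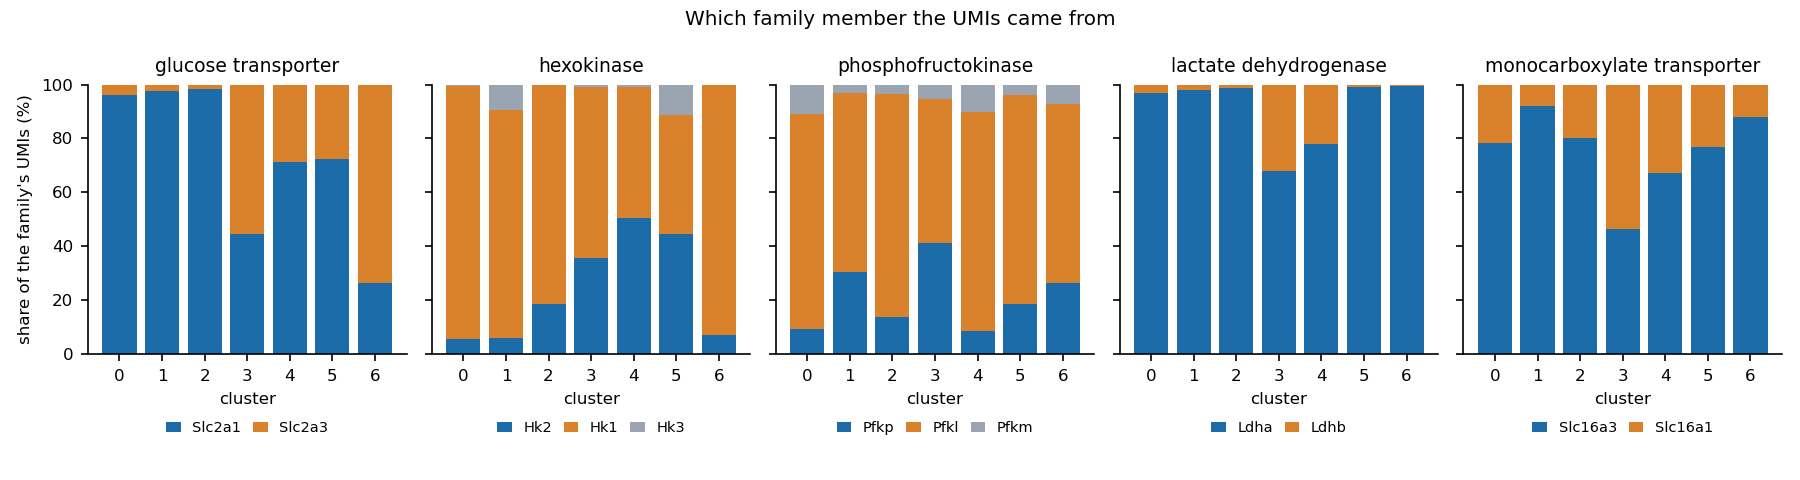
Share of UMIs (vertical axis, %) that came from each gene of 5 families in clusters 0 to 6 (horizontal axis), with all cells of a cluster summed. *Slc2a3* supplied 73.7% of the 2 glucose carriers' UMIs in cluster 6, and *Ldhb* supplied 32.2% and 22.2% of lactate dehydrogenase UMIs in clusters 3 and 4.

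The middle enzymes moved less. *Aldoa* (chr7:126795234-126800751, minus strand), the aldolase that splits fructose 1,6-bisphosphate, was highest in cluster 5 (12.8, 11.7 and 12.2 in libraries 1, 2 and 3) and cluster 6 (11.04 to 11.6), with cluster 1 next (10.3, 8.88 and 8.66). Its pooled range over the 7 clusters was 2.34-fold, down to 5.27 in cluster 0. *Tpi1* (chr6:124810586-124814296, minus strand), the isomerase that equalizes the trioses, was at 7.89, 7.86 and 8.03 in cluster 5 and 6.04, 6.62 and 6.12 in cluster 6. No library of another cluster reached 5. Its lowest levels were 2.48 in cluster 0 and 2.23 in cluster 3. *Gapdh*, the dehydrogenase of the next step and no member of the list, had the same lowest and highest clusters as *Aldoa*, at 11.6 in cluster 0 and 28.3 in cluster 5.

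*Pgk1* (chrX:106187100-106203699, plus strand) makes the first ATP of the pathway. Its levels lay between 0.171 (cluster 3, 122 UMIs) and 0.402 (cluster 5), and the library ranges overlapped in all 6 pairs of neighbouring clusters. Read within each library, clusters 5, 6, 2, 4, 0 and 3 kept this order, and cluster 1 alone changed place. Some steps were small, such as 0.249 in cluster 2 and 0.247 in cluster 4 in library 3. *Eno1* (chr4:150236721-150248879, plus strand), an enolase, was highest in cluster 5 (6.61, 6.28 and 6.06) and lowest in cluster 0 (3.08, 2.74 and 2.73). Clusters 4, 2 and 6 overlapped between 5.69 and 5.30. Of 14 windows of 90 bases along the last 500 bases of *Eno1* transcripts, 8 also occurred in *Eno1b* or *Gm4735*, so the *Eno1* count may be shared with these copies and is uncertain, whereas no such window was found for the other 9 genes. *Pkm* (chr9:59656368-59679375, plus strand), the pyruvate kinase, was nearly level, from 10.4 in cluster 6 to 13.8 in cluster 3, except in cluster 0, where it was 6.60, 6.16 and 6.83. The count is per gene and cannot tell the PKM1 and PKM2 splice forms apart.

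*Ldha* (chr7:46841475-46855627, plus strand) encodes the lactate dehydrogenase subunit that favours lactate. It stood at 20.4, 19.7 and 19.8 in cluster 6 and 19.4, 18.0 and 18.4 in cluster 5, and these ranges did not overlap. Cluster 2 was at 13.5, 12.5 and 12.5, and the highest library of clusters 0, 1, 3 and 4 was at 10.4. The lowest levels were in cluster 0 (5.99, 5.86 to 6.13) and cluster 3 (4.32, 4.17 to 4.48). *Ldhb*, the subunit of oxidative tissues, supplied 0.582% and 0.850% of both genes' UMIs in clusters 6 and 5 and 1.23% to 3.12% in clusters 0, 1 and 2. In cluster 3 it supplied 32.2% and in cluster 4 22.2%.

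*Slc16a3* (chr11:120948480-120960868, plus strand) encodes MCT4, the carrier that releases lactate from glycolytic cells. It was at 2.25, 2.19 and 2.55 in cluster 6, 1.52, 1.596 and 1.66 in cluster 5 and at most 1.12 in every library of the other clusters. Clusters 1 (1.04) and 2 (0.895) overlapped, as did clusters 0 (0.357) and 3 (0.299). At 5,000 UMIs per cell, 57.3% and 44.0% of cells in clusters 6 and 5 held a *Slc16a3* UMI, against 30.4% and 15.4% in clusters 2 and 0. The 4 genes *Aldoa*, *Tpi1*, *Ldha* and *Slc16a3*, from the splitting of the sugar and from the lactate end, thus had clusters 5 and 6 above the other 5 in every library.

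**Figure D3:**
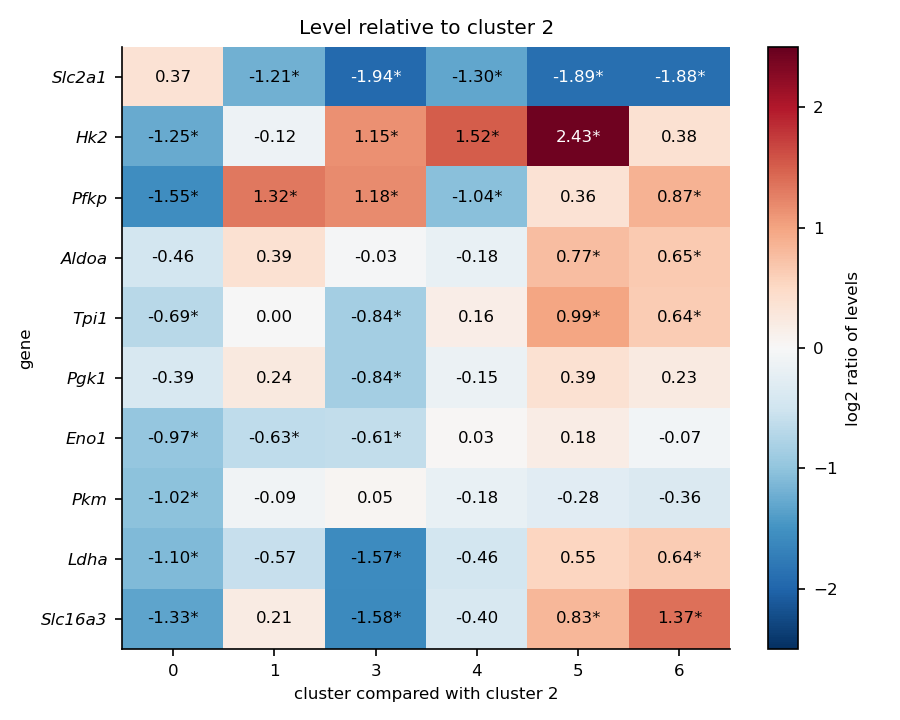
Log2 ratio (colour and printed value) of each gene's level in clusters 0, 1, 3, 4, 5 and 6 (columns) to its level in cluster 2. A star marks a ratio of at least 1.5-fold with the same direction in all 3 libraries. *Slc2a1* is lower by 1.88 to 1.94 in clusters 3, 5 and 6, and *Hk2* is higher by 2.43 in cluster 5.

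Each cluster was then set against cluster 2, the largest. A gene was counted as higher or lower when it differed by at least 1.5-fold with the same direction in all 3 libraries. The same count over all 8317 genes gives the background, and all of these comparisons share the cells of cluster 2. In cluster 5, 4 of the 10 genes were higher than in cluster 2, beside 13.6% of all genes, and 1 was lower, beside 23.8%. The 4 were *Hk2* (log2 ratio 2.43, 2.33 to 2.53), *Tpi1* (0.99, 0.968 to 1.003), *Slc16a3* (0.83, 0.79 to 0.87) and *Aldoa* (0.77, 0.75 to 0.78). *Ldha* was at 0.55, short of the limit, but passed it at 0.61 on a median-of-ratios scale and at 0.59 without mitochondrial and ribosomal protein genes in the totals. *Slc2a1* was the gene that was lower, by a log2 ratio of -1.89 (-1.93 to -1.85). The median of the 10 was 0.47 against -0.06 over all genes.

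In cluster 6, 5 of the 10 were higher, beside 13.9% of all genes, and *Slc2a1* alone was lower (-1.88, -1.97 to -1.78), beside 26.3%. The higher genes were *Slc16a3* (1.37, 1.31 to 1.44), *Pfkp* (0.87), *Aldoa* (0.65), *Ldha* (0.64) and *Tpi1* (0.64). Over all genes the median log2 ratio was -0.12, and relative to it these 5 stood at 1.498, 0.9975, 0.78, 0.76 and 0.77. With each cell at 5,000 UMIs 3 of them remained past 1.5-fold, *Slc16a3* (1.22), *Ldha* (0.68) and *Pfkp* (0.60), while *Aldoa* was at 0.55 and *Tpi1* at 0.52.

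Clusters 5 and 6 differed from each other mainly in *Hk2*, which was higher in cluster 5 by a log2 ratio of 2.05 (1.78 to 2.33) and was the only 1 of the 10 past the limit, beside 14.9% of all genes. None was lower, beside 11.7%, although *Slc16a3* (-0.55, -0.61 to -0.48) and *Pfkp* (-0.51, -0.65 to -0.37) were lower in all 3 libraries. *Slc16a3* passed at -0.59 without library 2, at -0.64 as a mean over cells and at -0.602 on the median-of-ratios scale. Together, clusters 5 and 6 had 5 of the 10 higher than clusters 0, 1 and 2, beside 13.1% of all genes. These were *Hk2* (2.33), *Tpi1* (0.98), *Slc16a3* (0.98), *Aldoa* (0.76) and *Ldha* (0.65). UMIs were summed here, and cluster 5 held 61078961 beside 10771345 in cluster 6. Cluster 2 held 140516887 beside 12586923 and 8412051 in clusters 0 and 1, so the sums follow mainly clusters 5 and 2. In cluster 6 alone *Hk2* was at 0.38 against cluster 2, short of the limit. *Slc2a1* (-1.88) was lower, beside 24.1%.

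Cluster 0 had the reverse. Of the 10 genes 7 were lower than in cluster 2, beside 10.1% of all genes, and 0 were higher, beside 15.5%. The 7 were *Pfkp* (-1.55), *Slc16a3* (-1.33), *Hk2* (-1.25), *Ldha* (-1.10), *Pkm* (-1.02), *Eno1* (-0.97) and *Tpi1* (-0.69), while *Aldoa* (-0.46) and *Pgk1* (-0.39) were lower in all 3 libraries but short of the limit. *Slc2a1* had a log2 ratio of 0.37 (0.32 to 0.41), above 0 in all 3 libraries. The median of the 10 was -0.99 against 0.05 over all genes. Among the other glycolytic enzymes *Pfkl* (-1.03), *Pgam1* (-1.002) and *Gapdh* (-0.74) were also lower and *Hk1* (0.66) was higher, 3 and 1 of 6 tested, beside the same 10.1% and 15.5%.

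In cluster 1 the counts of higher and lower genes did not exceed the share over all genes. *Pfkp* (1.32, 1.19 to 1.45) was the 1 gene higher than in cluster 2, beside 23.1% of all genes, and *Slc2a1* (-1.21, -1.30 to -1.13) and *Eno1* (-0.63) were the 2 lower, beside 22.3%. Without the 54 cells picked by macrophage and neutrophil markers, *Hk2* (-1.32 instead of -0.12) and *Ldha* (-0.65 instead of -0.57) were lower as well. *Pfkp* was then at 1.40. *Ldha* also passed without library 1 (-0.68), with equal weight to libraries (-0.61) and without mitochondrial and ribosomal protein genes in the totals (-0.705).

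In cluster 3, 2 of the 10 were higher than in cluster 2, *Pfkp* (1.18) and *Hk2* (1.15), beside 16.2% of all genes. A further 6 were lower, beside 34.1%: *Slc2a1* (-1.94), *Slc16a3* (-1.58), *Ldha* (-1.57), *Pgk1* (-0.84), *Tpi1* (-0.84) and *Eno1* (-0.61). The median over all genes was -0.18 here. Relative to it *Slc2a1* stood at -1.76, *Slc16a3* at -1.40, *Ldha* at -1.39, *Pgk1* and *Tpi1* at -0.66 and *Eno1* at -0.43, with *Pfkp* at 1.36 and *Hk2* at 1.33. On that scale 43.8% of the calls over all genes were in the higher direction instead of 32.2%. With each cell at 5,000 UMIs *Pgk1* (-0.53) and *Eno1* (-0.396) no longer passed. *Eno1* also fell short as a mean over cells (-0.48), on the median-of-ratios scale (-0.43), without mitochondrial and ribosomal protein genes (-0.45) and without library 1 (-0.58). Cluster 3 rests on 69, 138 and 32 cells in the 3 libraries. In cluster 4, *Hk2* (1.52, 1.32 to 1.71) was higher, beside 14.9% of all genes, and *Slc2a1* (-1.30) and *Pfkp* (-1.04) were lower, beside 12.1%.

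Per cell, the 10 genes together gave a median of 12 UMIs per 5,000 in cluster 0, 17 in clusters 1, 3 and 4, 22 in cluster 2 and 28 in clusters 5 and 6. As a share of all UMIs they made up 0.280%, 0.417% and 0.477% in clusters 0, 1 and 2, 0.332% and 0.402% in clusters 3 and 4, and 0.599% and 0.574% in clusters 5 and 6. The middle 50% of cells ran from 8 to 17 UMIs in cluster 0 and from 21 to 36 in cluster 5. Cluster 1 was the most stretched for its median, with a 5th percentile of 5 and a 95th of 45. Its 54 cells picked by macrophage and neutrophil markers had a median of 27.5. The other 691 cells at this depth had a median of 17, with quartiles of 10 and 25.

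**Figure D4:**
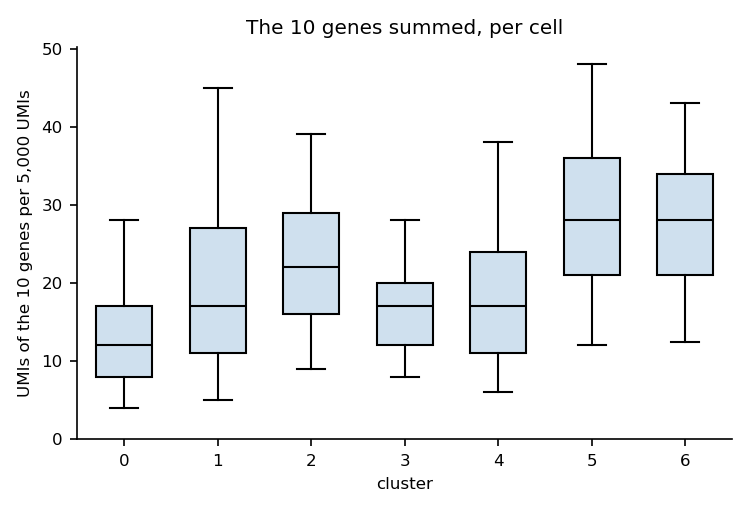
UMIs of the 10 genes together per 5,000 UMIs of a cell (vertical axis) in clusters 0 to 6 (horizontal axis). Boxes are quartiles with the median, whiskers the 5th and 95th percentiles over cells, and the medians run from 12 in cluster 0 to 28 in clusters 5 and 6.

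The genes with the most similar pattern to the mean of the 10 over the 21 combinations of cluster and library were *Ybx3* (Pearson r 0.97), which encodes a Y-box protein that binds nucleic acids, *Coq5* (0.92) of ubiquinone synthesis, the tRNA synthetases *Nars* (0.91) and *Yars* (0.90), *Desi1*, *Abce1* and *Ptpa* (0.90, 0.90 and 0.89), *Ccdc115* (0.89), *Aldh9a1* (0.89) and *Ptgs1* (0.88). *Ybx3* ran from 2.55 in cluster 0 to 5.25 in cluster 5. Of these 10, 7 stayed among the 10 most similar with a pseudocount of 1 in place of 0.1 and 7 with a rank correlation.

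The cycling state of a cell was read from the UMIs of *Mki67* and *Top2a*, with at least 1 at 5,000 UMIs per cell. By this measure 75.4% of cells in cluster 2 and 86.3% in cluster 5 were cycling, against 38.8% in cluster 0 and 16.6% in cluster 1. Within cluster 2, none of the 10 genes was higher by 1.5-fold in the cycling cells, beside 3.09% of all genes, and *Slc2a1* was lower, beside 1.53%. Its level was 2.88 in the 4056 cycling and 4.48 in the 1321 other cells (log2 ratio -0.64, -0.67 to -0.61), with -0.53, -0.62 and -0.76 in libraries 1, 2 and 3. Without library 3 it was -0.57 and short of the limit. *Hk2*, *Aldoa*, *Tpi1*, *Eno1*, *Ldha* and *Slc16a3* had log2 ratios above 0 in all 3 libraries, from 0.06 (*Tpi1*) to 0.29 (*Hk2*), short of the limit.

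*Hk2* in cluster 2 depended on how cycling cells were compared. Its log2 ratio was 0.29 on summed UMIs, 0.79 with each cell at 5,000 UMIs and 0.60 with a stricter definition of cycling, and the latter pair passed 1.5-fold. Within cluster 5 none of the 10 genes was higher, beside 1.90% of all genes, and none was lower, beside 1.01%, between 1353 cycling and 215 other cells. The interval for *Slc2a1* there ran from -0.28 to -0.05 and its libraries disagreed in sign (0.23, -0.02 and -0.60).

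**Figure D5:**
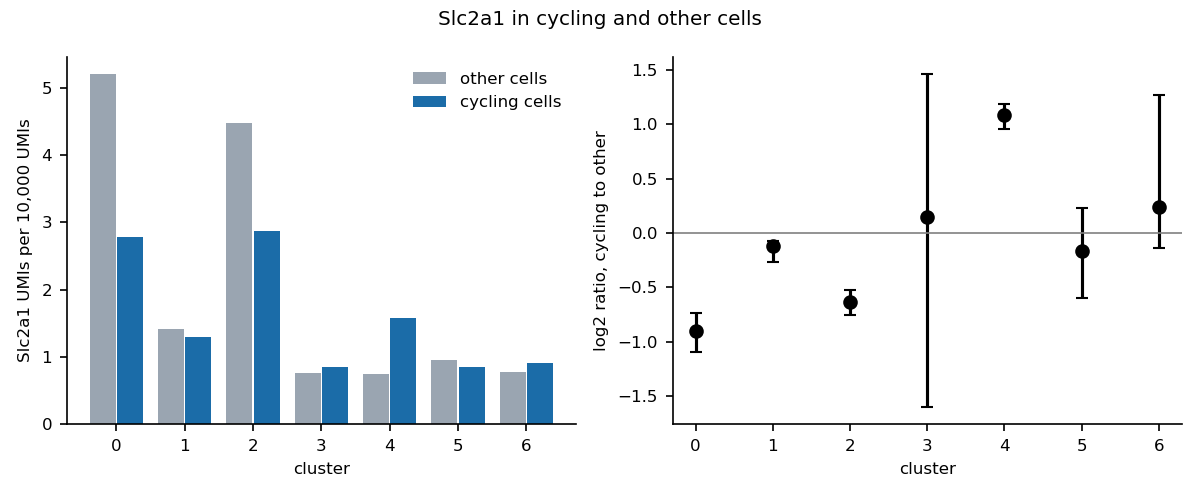
Left, *Slc2a1* level (UMIs per 10,000 UMIs) in cycling and other cells of clusters 0 to 6. Right, log2 ratio of cycling to other cells, with points for all cells and bars for the lowest and highest of the 3 libraries. The ratio is -0.90 in cluster 0, -0.64 in cluster 2 and 1.09 in cluster 4, and the libraries of clusters 3, 5 and 6 lie on both sides of 0.

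Cluster 5 was divided into 634 cells with at least 2 UMIs of *C1qb* and none of *Mpo*, and 240 cells with the reverse, at 5,000 UMIs per cell. *C1qb* is a complement gene of tissue macrophages and *Mpo* encodes the myeloperoxidase of neutrophil precursors. Of the 10 genes 1, *Slc16a3*, was past the limit in the *C1qb* cells, beside 12.6% of all genes. None was lower, beside 6.85%. *Slc16a3* stood at 1.88, 2.20 and 1.86 in the *C1qb* cells of libraries 1, 2 and 3 and at 1.19, 0.916 and 1.42 in the *Mpo* cells (log2 ratio 0.67, 0.59 to 0.76). Without library 2 it was 0.53 and did not pass. The ratios of *Slc2a1*, *Aldoa*, *Tpi1*, *Pgk1*, *Eno1*, *Pkm* and *Ldha* ran from 0.19 (*Ldha*) to 0.53 (*Pgk1*), short of the limit. *Hk2* (0.14, -0.01 to 0.30) and *Pfkp* (-0.14, -0.31 to 0.03) differed in sign between libraries.

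The hexokinases differed more between these cells. *Hk1* was at 0.141 in the *C1qb* cells, 0.465 in the *Mpo* cells and 0.778 in the 497 cells of cluster 5 with neither marker, in which *Hk2* was at 0.330. *Hk3* stood at 0.225, 0.112 and 0.00212 in the same 3 groups.

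The regulators and neighbouring pathways were read from lists. In cluster 1, 7 of 9 tested HIF targets outside the 10 genes were higher than in cluster 2, beside 23.1% of all genes, and none was lower, beside 22.3%, with a median log2 ratio of 1.03. They included *Ndrg1* (1.74 against 0.0835 UMIs per 10,000), *Bnip3* (0.843 against 0.189), *Mxi1* (0.462 against 0.147) and *Ddit4* (0.785 against 0.216). In cluster 4, 5 of the 9 were higher than in cluster 2, beside 14.9% of all genes, and 0 were lower, beside 12.1%. The median log2 ratio was 0.78 there, so a raised list was not particular to cluster 1. *Hif1a* itself was at 4.95 in cluster 1, between 4.50 and 5.39 in the libraries, and between 0.644 and 1.28 in the other clusters. Without the 54 cells with leukocyte markers *Hif1a* was at 5.08 and *Ndrg1* at 1.92 in cluster 1. *Pfkfb3*, which makes the activator of phosphofructokinase, was likewise highest there (0.554 against 0.144 in cluster 2), beside the high *Pfkp* described above. *Slc2a1* and *Ldha*, which are HIF targets in many cells, had log2 ratios of -1.21 and -0.57 in cluster 1 against cluster 2. That of *Ldha* was short of the limit with all cells of cluster 1. Whether HIF had a part in any of these values was not tested.

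In cluster 5, 1 of the 9 HIF targets was higher than in cluster 2 (*Bnip3*, 0.582), beside 13.6% of all genes, and 3 were lower, beside 23.8%, which is near the background. *Hif1a* was at 0.644 against 1.004. *Myc* was at 0.703 in cluster 5 and 0.578 in cluster 1, with overlapping library ranges, against 0.316 in cluster 2. *Epas1*, which encodes HIF2A, was at 1.803 and 1.61 in clusters 0 and 1, 0.402 in cluster 2 and at most 0.168 elsewhere. In cluster 0, 3 HIF targets were higher (*Bnip3l*, *Ddit4* and *Mxi1*), beside 15.5% of all genes, and 2 lower (*Bnip3* and *Ndrg1*), beside 10.1%.

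The pentose phosphate pathway draws on glucose 6-phosphate to make NADPH and ribose. In cluster 5, 5 of its 6 genes were higher than in cluster 2, beside 13.6% of all genes, and none was lower, beside 23.8%: *Rpia* (0.537 against 0.148), *G6pdx* (0.326 against 0.102), *Pgd* (1.85 against 0.845), *Taldo1* (3.48 against 1.997) and *Tkt* (5.76 against 3.51). In cluster 6 *Rpia* alone was higher (0.604), beside 13.9%. In cluster 1 *G6pdx*, *Taldo1* and *Rpia* were higher, beside 23.1%, and *Tkt* and *Pgls* lower, beside 22.3%, and *Taldo1* reached 6.05.

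Pyruvate entry into mitochondria and fat use completed the lists. In cluster 5 *Mpc1*, *Mpc2* and *Pdha1* were higher, 3 of 5 genes beside 13.6% of all genes, and in cluster 6 *Mpc1* alone, beside 13.9%. In cluster 1, 5 of 7 tested genes of fatty acid use were higher, beside 23.1%, and none was lower, beside 22.3%, with *Fabp4*, a fatty acid binding protein of capillary endothelium, at 65.0 against 1.33 and *Gpihbp1*, which holds lipoprotein lipase on capillary walls, at 10.1 against 0.262. In cluster 0 none of these 7 passed in either direction, beside 15.5% and 10.1%. *Tigar*, which lowers the phosphofructokinase activator, was highest in cluster 3 (0.442 against 0.0834 in cluster 2).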

How the data were processed

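Single-cell RNA was measured with 10x Genomics 3′ chemistry in 3 pools. The authors aligned the reads to mm10 and counted UMIs with Cell Ranger 3.1.0, and the processing notes also name Seurat 3.1.5. The deposited counts are whole UMI counts per Ensembl gene and cell. Another deposited table gives values on the natural log scale (the authors' counts per 10,000 with 1 added), which the counts gave again within 5.3e-15 for the 10 genes. The third deposited table gives the authors' cluster number and other values per cell, of which only the cluster was used. No cell could be traced to a pool, so each comparison is a ratio of summed counts with exact intervals (Poisson for levels, Clopper-Pearson for shares, conditional binomial for ratios) in place of a test.

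GENCODE M21 (GRCm38) named 27722 of 27998 genes, and 11 names were summed. Cells were thinned to 5,000 UMIs for shares (seed 1), leaving out 90, and 13 barcodes occurred in 2 libraries. The study's methods describe a minimum depth and singlets. Scrublet called 8 cells (0.0837%), which were kept, and whether doublets remain was not tested. The members and lists were chosen with earlier results of these data known. The named genes are the 10 members, 10 pathway lists, 9 marker lists and the 10 genes most like the members. Further alternatives were the mean over cells, a median-of-ratios scale, totals without mitochondrial and ribosomal protein genes, equal library weights, 2-fold in place of 1.5-fold, other class limits, other minimum levels and leaving out each library. On simulated data the comparison recovered the changed genes, which checks the computation only and not the readings made here. Python 3.11.15, numpy 2.4.6, scipy 1.17.1, scanpy 1.11.5 and matplotlib 3.10.9 were used.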

Additional observations from a re-analysis of the deposited data

Results flagged for a closer look

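The cycling contrast had opposite directions in some pairs of clusters, in each of the 3 libraries. Each difference was not tested. *Slc2a1* had a log2 ratio of cycling to other cells of -0.64 in cluster 2 and 1.09 in cluster 4, where its level was 1.58 in 318 cycling and 0.745 in 194 other cells. *Aldoa* stood at 0.086 in cluster 2 and at -0.17, -0.39, -0.14 and -0.16 in clusters 0, 1, 4 and 6. *Slc16a3* stood at 0.12 in cluster 2 and at -0.80 and -0.34 in clusters 1 and 6. Stromal markers were at 17.3 in cluster 4 and 0.104 in cluster 2, and macrophage markers at 3.06 in cluster 1 and 0.0509 in cluster 2, and their part in these values was not tested.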

How the results depend on the processing

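Of 1040 log2 ratios of the 10 genes under alternatives, 861 moved by less than the spread between libraries, 179 moved by more and 0 of those past 1.5-fold changed direction. Of 230 counts of genes past the limit, 214 kept within 1.5 times. At 2-fold, the genes lower were 1 for cluster 1 and 3 for cluster 3 against cluster 2 and 0 for cycling cells in cluster 2, and the genes higher were 1 for cluster 5, for cluster 6 and for clusters 5 and 6 together, and 0 for *C1qb* against *Mpo* cells. With 5,000 UMIs per cell, 3 were higher in cluster 6 and 1 (*Hk2*) in cycling cells of cluster 2, as also with other class limits (1). The mean over cells and the median-of-ratios scale made 1 gene (*Slc16a3*) lower in cluster 5 than in cluster 6. Leaving out the leukocyte-gene cells of cluster 1, chosen after seeing the data, made 4 lower there. Leaving out each library in turn gave 0 to 1 genes lower in cluster 5 than in cluster 6, 0 to 1 higher in *C1qb* cells and 0 to 1 lower in cycling cells of cluster 2. The cause was not tested, save that the 2-fold limit admits fewer genes by construction. Shares of all genes under these other settings are not given here, so these counts are not read against a background. No paired test over the libraries was made, and each ratio was instead read within every library, which pairs the groups by library. Low counts limit *Hk2*, *Pfkp* and *Pgk1* most.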
